A study of Drosophila melanogaster with 2 samples.

Results

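The regions described here are the 1112 peaks of the tagged repressor Brinker that lie at one-directional promoters. They come from 3380 peaks, filtered for reproducibility, on the chromosome arms 2L, 2R, 3L, 3R, 4 and X (3413 with the mitochondrial genome). A peak was taken when its summit lay within 500 bp of an annotated start of a protein-coding transcript and when all such starts within 500 bp pointed the same way. Peaks with coding starts of both orientations in reach, called divergent promoter peaks, number 263, and the other 2005 have no coding start within 500 bp. Brinker binding was mapped by chromatin immunoprecipitation and sequencing (ChIP-seq) in Drosophila melanogaster of a transgenic line that makes Brinker with eGFP fused to its C terminus, with an antibody to GFP and sonicated chromatin. Entire wandering larvae of the third instar and of both sexes were pooled, so every tissue contributes and no value can be given to one organ. The design has 1 group of 2 biological replicates, numbered 3 and 4 by the submitters, and no other genotype, stage or mock sample is used here. Direct contact of Brinker with the DNA at these peaks was not tested. The values are deposited peak lists, from which sequencing depth is unknown. Signal is the value that these lists give each peak, on a scale the sources do not state. It comes from the list of peaks that passed the irreproducible discovery rate (IDR) procedure on pooled data unless a replicate is named, and it ranked and described peaks within a list.

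Brinker is a sequence-specific repressor that keeps targets of the BMP ligand Dpp off where Dpp signalling is low. In the larval wing disc, Dpp signalling silences brk itself through Mad, Medea and the zinc finger protein Schnurri, so the repressor accumulates at the disc edges. Brinker recruits the corepressors Groucho and CtBP. Drosophila promoters come in classes: many developmental and inducible ones carry GAGA repeats read by the GAGA factor (the product of Trl), while many housekeeping ones, often arranged head to head, carry the element bound by DREF (DRE).

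The summit sequences of 11 of these promoter peaks show the kinds of site that the rest of the results count. Each run is 151 bases of the RefSeq Release 6 genome (dm6), centred on the summit and written 5′ to 3′ in the direction of the nearest gene, and none overlaps an annotated exon. Examples were drawn, by signal, only from stretches free of exons, with the motif inside the bases shown, and from part of the chromosome arms, so stronger peaks with the same motifs, named further on, are not printed. Capitals mark GAGAG on either strand, TATCGATA (DRE), or a Brinker site on either strand, taken here as GGCGCC or GGCGCT or GGCGTC or GGCGTT. The first pair are the strongest peaks of the group, which hold none of these motifs in the stretch shown: CG14100 at chr3L:19590553-19590703 (minus strand) and CG18549 at chr3R:12449097-12449247 (plus strand).
CG14100: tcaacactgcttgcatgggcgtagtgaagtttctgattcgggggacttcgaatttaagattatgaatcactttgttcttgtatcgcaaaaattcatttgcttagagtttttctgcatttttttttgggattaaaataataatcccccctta
CG18549: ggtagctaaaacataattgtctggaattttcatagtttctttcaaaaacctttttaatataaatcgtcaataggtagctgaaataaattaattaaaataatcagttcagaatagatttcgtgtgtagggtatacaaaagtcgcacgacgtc
The next 3 are examples with GAGAG: papi at chr2L:2221742-2221892 (plus strand), REPTOR at chr3R:24572566-24572716 (minus strand) and nebu at chr3L:12843214-12843364 (minus strand), which also holds a Brinker site.
papi: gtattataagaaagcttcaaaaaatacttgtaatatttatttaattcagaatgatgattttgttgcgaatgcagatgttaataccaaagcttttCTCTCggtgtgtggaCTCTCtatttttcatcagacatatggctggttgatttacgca
REPTOR: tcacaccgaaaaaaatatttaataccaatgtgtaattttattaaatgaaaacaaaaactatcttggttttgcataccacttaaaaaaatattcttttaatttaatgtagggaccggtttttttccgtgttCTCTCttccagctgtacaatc
nebu: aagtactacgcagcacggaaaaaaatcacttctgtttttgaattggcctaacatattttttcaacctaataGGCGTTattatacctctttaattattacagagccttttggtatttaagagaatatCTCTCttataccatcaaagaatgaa
The next 3 are examples with a DRE: MEP-1 at chr3L:2631522-2631672 (plus strand), Vps15 at chr3R:9245886-9246036 (minus strand) and RpL6 at chr3R:31596411-31596561 (minus strand).
MEP-1: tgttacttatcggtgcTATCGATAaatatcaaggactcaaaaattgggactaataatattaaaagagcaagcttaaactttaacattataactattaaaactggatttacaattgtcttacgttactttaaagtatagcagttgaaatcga
Vps15: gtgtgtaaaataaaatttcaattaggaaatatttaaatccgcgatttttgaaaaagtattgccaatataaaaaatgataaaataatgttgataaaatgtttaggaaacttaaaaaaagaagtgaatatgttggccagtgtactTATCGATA
RpL6: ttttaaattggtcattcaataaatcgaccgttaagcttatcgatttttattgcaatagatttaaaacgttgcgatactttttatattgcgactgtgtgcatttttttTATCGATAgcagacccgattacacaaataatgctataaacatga
The last 3 are further examples with a Brinker site: CG11357 at chr3L:4541850-4542000 (plus strand), Trp1 at chr2L:10010110-10010260 (plus strand) and Cyp310a1 at chr2L:18653423-18653573 (minus strand).
CG11357: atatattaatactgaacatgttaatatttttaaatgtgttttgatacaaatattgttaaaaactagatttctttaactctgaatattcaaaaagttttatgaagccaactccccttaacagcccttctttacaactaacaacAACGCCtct
Trp1: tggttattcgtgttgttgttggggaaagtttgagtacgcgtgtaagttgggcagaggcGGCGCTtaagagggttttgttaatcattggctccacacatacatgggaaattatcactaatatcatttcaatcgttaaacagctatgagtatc
Cyp310a1: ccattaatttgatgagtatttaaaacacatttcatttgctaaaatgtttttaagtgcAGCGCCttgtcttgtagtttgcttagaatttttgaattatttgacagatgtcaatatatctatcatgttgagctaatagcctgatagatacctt
These stretches are rich in A and T, with a GC content from 23.8% at Vps15 to 41.1% at Trp1.

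The strongest one-directional promoter peaks were seen at similar height in both replicates. At CG14100 replicate 3 gave a signal of 519 and replicate 4 one of 648, and CG18549 had 526 and 517 in the same order. The summits stood at -104 and -124 bp, where a negative distance is upstream of the start. At gish, which encodes a casein kinase, the signals were 449 in replicate 3 and 575 in replicate 4. At Gapdh2, a glycolytic enzyme gene, they were 424 in replicate 3 and 461 in replicate 4. Their summits stood at -153 and -145 bp.

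Next in rank came mRpL41, a mitochondrial ribosomal protein gene, with 353 in replicate 3 and 420 in replicate 4. The peak of shn, the gene of Schnurri, had 415 in replicate 3 and 334 in replicate 4, at -159 bp from a start inside the gene. Fkbp14, a peptidyl-prolyl isomerase gene, had 386 in replicate 3 and 362 in replicate 4. The solute transporter gene SLC5A11 had 389 in replicate 3 and 344 in replicate 4, and Btk, a tyrosine kinase gene, had 327 and 392 in that order. Of these, shn, Fkbp14 and Btk carried the peak in an intron, at a later start of the gene. CG1888 (pooled signal 729) carried it in an exon of its own.

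The remaining ones of the strongest 25 lay between pooled signals of 678 and 484. They include larp (677), which encodes an RNA-binding protein, ph-p (665), a Polycomb group gene, papi (612), which acts in the piRNA pathway, and Hsp27 (610), a small heat shock protein gene. PAN3 (587), a deadenylase subunit gene, REPTOR (549), a transcription factor gene of TOR signalling, Lpin (540), a lipid phosphatase gene, Argk1 (511), the arginine kinase gene, and fkh (484), a salivary gland transcription factor gene, also belong to them. The other members of this group are CG43389 (653), Tina-1 (587), CG7841 (537), nebu (527) and brwl (492). In the whole group, 936 of 1112 had the summit upstream of the start and 431 had it between 100 and 250 bp upstream. Of the 25, 24 had it upstream and 17 had it in that interval. The exception was GstE13, a glutathione transferase gene, at 61 bp downstream, with a pooled signal of 678, a replicate 3 signal of 323 and no overlapping entry in replicate 4. Of the strongest 25 nuclear peaks of any class, 11 are in this group, which holds 32.9% of all nuclear peaks.

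**Figure D1:**
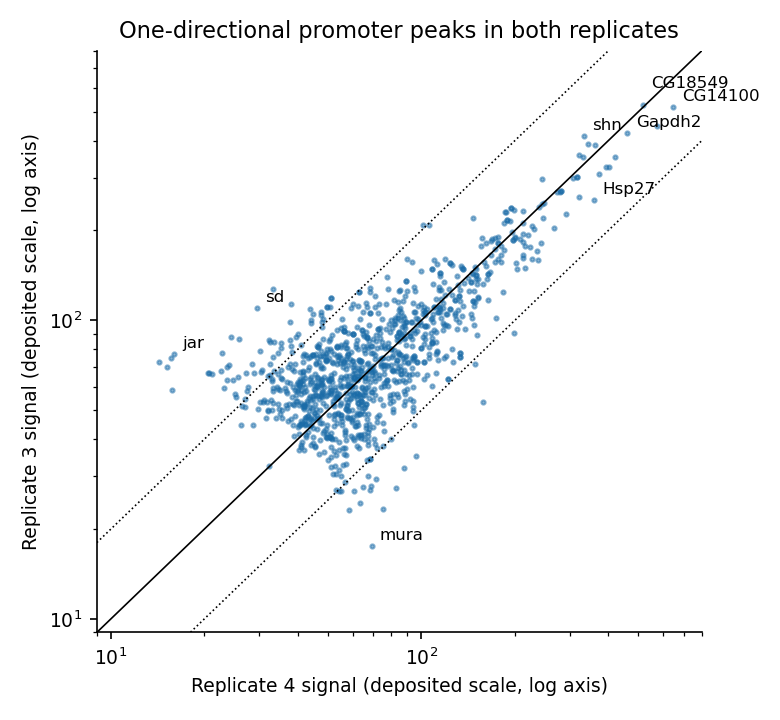
Signal of each one-directional promoter peak in replicate 3 (vertical) and replicate 4 (horizontal), both on log axes of the deposited scale, for the 1043 peaks with an entry in both. The solid line marks equal signal and the dotted lines a 2-fold difference, outside which 83 peaks lie. CG14100, CG18549, Gapdh2 and shn sit near the line at the top, while jar and sd lie far above it and mura far below.

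Across all 1112, 1043 (93.8%) overlapped an entry of both replicates by at least 1 bp. The log2 ratio of replicate 3 to replicate 4 signal had a median of 0.06 and an SD of 0.56 at these, against a median of 0.01 and an SD of 0.55 at the 1969 such peaks with no coding start in reach. The signals differed by more than 2-fold at 83 of the 1043 (7.96%). The widest gaps, named after their values were seen, were at Tlk, a kinase gene, with 72.3 in replicate 3 and 14.3 in replicate 4, and at jar, a myosin gene, with 77.1 in replicate 3 and 16.0 in replicate 4. The pooled signal was 86.2 at Tlk and 204 at jar. A matched replicate entry can be that of a neighbouring peak, which was not checked here. The opposite gap was widest at mura, with 17.5 in replicate 3 and 69.1 in replicate 4. The SD of the log2 ratio was 0.69 in the weakest of 5 equal groups by pooled signal and 0.40 in the strongest, so the replicates differed less at the strong promoters. Agreement between the replicates at the peaks of the group is in part built in, because the IDR procedure selects peaks for reproducibility. How it was applied is not known in detail, and some kept peaks lack an overlapping entry in replicate 4.

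No replicate 4 entry overlapped 68 of the one-directional promoter peaks (6.12%, 95% Wilson interval 4.85 to 7.68), against 31 of the divergent ones (11.8%, 8.43 to 16.2) and 35 of those with no coding start in reach (1.75%, 1.26 to 2.42). Replicate 3 lacked 1 of the group. The strongest peaks without a replicate 4 entry were at GstE13, CG5335 (pooled signal 379), elav (359), a neuronal RNA-binding protein gene, and CG9399 (358). The ratio of pooled to replicate 3 signal had a median of 1.81 at the 68 and 1.91 at the 1043 with both entries, which assumes a common scale of the lists. Wilson intervals here and below cover counting error only. Peaks of one library are not replicates of a condition, so differences between classes of peaks were not tested.

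Summits were denser at one-directional promoters than away from coding starts, and denser again at divergent ones. The group holds 32.9% of the nuclear peaks (31.3 to 34.5) in the 13.7 Mb of sequence that meets its rule, or 81.4 peaks per Mb, against 157 per Mb in the 1.67 Mb around divergent promoters and 16.9 per Mb in the 118 Mb with no coding start within 500 bp. The strongest 3380 nuclear entries of each replicate gave the same order. In replicate 3 the densities were 89.0 per Mb at one-directional promoters, 225 at divergent ones and 15.1 elsewhere. In replicate 4 they were 76.7 at one-directional promoters, 153 at divergent ones and 17.5 elsewhere. These densities take both sides of a start together, and the classes were not matched for distance from it. At one-directional promoters the density in the IDR list ran from 10.0 to 237 per Mb with that distance, in steps of 100 bp. The median signal was 123 at one-directional promoters (quartiles 99.7 and 176, range 82.6 to 1166), against 147 at divergent promoters and 116 elsewhere.

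Summits at one-directional promoters sat upstream of the start. The median distance was -160 bp (quartiles -264.2 and -56.0 bp), with 936 summits upstream and 176 downstream (15.8%, 13.8 to 18.1). The replicates put the same peaks at medians of -158 bp (replicate 3) and -159.5 bp (replicate 4), so their difference is small beside the spread between promoters. Per Mb of sequence at a given distance, the density was highest from 100 to 200 bp upstream, with 306 summits or 237 per Mb. From 200 to 300 bp upstream it was 181 per Mb and in the last 100 bp before the start 144 per Mb. In the first 100 bp of the transcript it was 52.8 per Mb, and from 200 to 300 bp downstream 10.0 per Mb. Divergent promoter peaks had a median of -96.0 bp from the nearest of their starts, with 46 of 263 (17.5%) downstream of it.

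**Figure D2:**
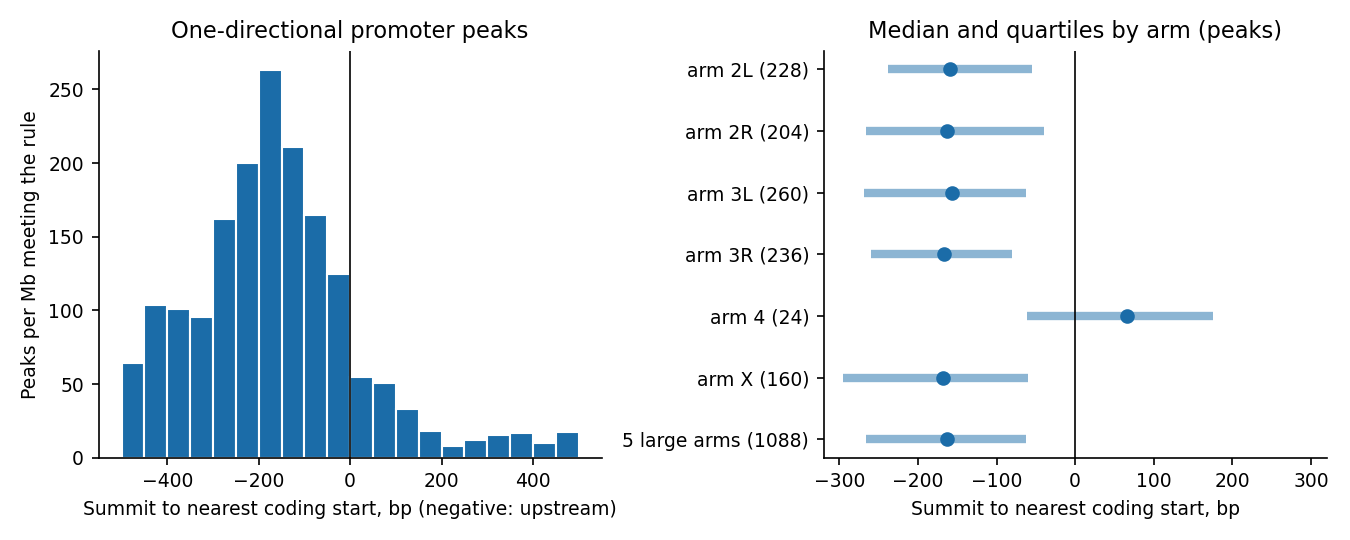
Left, density of one-directional promoter peaks per Mb of sequence that meets the rule, in 50 bp bins of the distance from the nearest coding start (bp, negative upstream). Right, median (point) and quartiles (bar) of that distance on each arm, with the number of peaks in brackets. The medians of the 5 large arms lie between -168.0 and -156.5 bp, and that of arm 4 at 66.0 bp.

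The small arm 4, which is largely heterochromatin-like, departed from this arrangement. Of its 35 nuclear peaks, 24 (68.6%) belong to the group, against 30.7% to 35.1% on the other arms. Of these 24, 15 had the summit downstream of the start (62.5%, 42.7 to 78.8), with a median of 66.0 bp, against 161 of 1088 (14.8%, 12.8 to 17.0) and a median of -163.0 bp on the 5 large arms together. The replicates placed 16 of 24 downstream (replicate 3) and 14 of 24 (replicate 4). The genes, named after their values were seen, include MED26, a Mediator subunit gene, with the summit at 97 bp, pan, which encodes the transcription factor of Wg signalling, at 72 bp, Hcf at 234 bp, PlexB, an axon guidance receptor gene, at 174 bp, and ey, an eye selector gene, at 60 bp. Actbeta (-25 bp), zfh2 (-98 bp) and ci (-87 bp), the transcription factor gene of Hedgehog signalling, had it upstream. Signals on arm 4 ran from 82.8 to 136 with a median of 103, and sequence that meets the rule comes to 0.108 Mb there.

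The stronger a one-directional promoter peak was, the more often it stood between 100 and 250 bp upstream. Over 5 equal groups by pooled signal, from weakest to strongest, the share in that interval was 27.8%, 32.4%, 36.5%, 45.5% and 51.6%. The 95% interval was 22.3 to 34.0 in the weakest group and 45.0 to 58.0 in the strongest. The share downstream of the start was 24.2% in the weakest group and 9.42% in the strongest. Ranking by one replicate and taking the position from the other gave the same trend at its ends. Ranked by replicate 3 and located in replicate 4 the shares were 26.3% in the weakest group and 56.9% in the strongest. Ranked by replicate 4 and located in replicate 3 they were 34.4% in the weakest and 51.7% in the strongest, with the next weakest group at 33.2%.

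**Figure D3:**
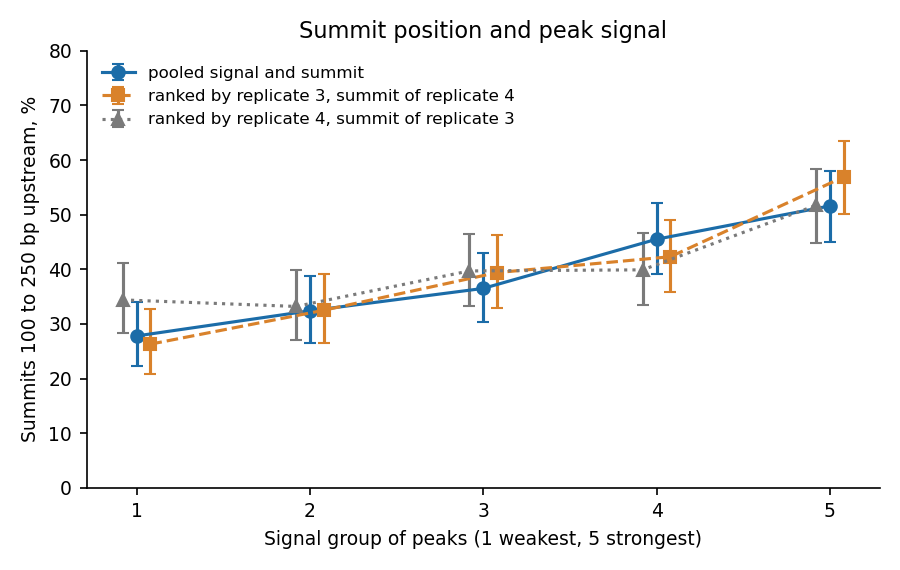
Share of one-directional promoter peaks with the summit 100 to 250 bp upstream of the nearest coding start (vertical, %), in 5 equal groups by signal from weakest (1) to strongest (5). Points are shares and bars 95% Wilson intervals, for the pooled list and for each replicate ranking set against the summits of the other. In all 3 series the strongest group lies above 50%.

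The width of the peak interval moved with signal too. In 933 of the 1112 (83.9%) the interval is exactly 416 bp wide, and in 84.4% of all the summit equals its midpoint to within 1 bp. The 177 narrower peaks had a median signal of 288, against 114 for those of full width, and a median distance of -177 bp against -153 bp. The narrower peaks stood in the 100 to 250 bp interval in 58.2% of cases and the full-width ones in 35.2%. Precision of the summit was not measured by signal, and its part in the trend with signal was not tested.

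By annotation, 560 summits (50.4%) lay outside coding genes, 322 in an intron and 164 in an exon of the gene whose start was nearest, and the rest in another gene. Per Mb of sequence that meets the rule the densities were 174 outside coding genes, 104 in introns and 27.1 in exons. The nearest start was the first annotated start of the gene, or lay within 500 bp of it, at 751 peaks, with a median signal of 123. It was a later start at 361, with a median of 128. A noncoding transcript started on the opposite strand within 500 bp at 62 of the group, brwl among them. The nearest coding start of the opposite strand was a median of 5100 bp away, and for 102 peaks it lay between 500 and 1000 bp away, as at SLC5A11 (874 bp), mRpL41 (623 bp) and CG7841 (660 bp).

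Counted over all genes, later promoters carried Brinker peaks more often than first promoters. Starts of one strand within 500 bp of each other were merged into promoters, and 1051 of the 12942 one-directional ones (8.12%) had a peak. The share was 11.1% (10.0 to 12.3) for the 3007 later promoters, against 7.22% (6.72 to 7.74) for the 9935 that hold the most upstream start of a gene. Counted over genes, 992 of 13893 (7.14%) had a peak at a one-directional start of their own. This share was 4.43% for genes with 1 promoter, 16.3% with 2, 28.9% with 3 and 47.0% (40.9 to 53.2) with 4 or more. Later promoters exist only in genes with 2 or more promoters, while first promoters include those of genes with 1. First and later promoters were not compared within the same genes.

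Several genes carried more than a single peak, at separate or at shared starts. Of the 967 genes nearest to a peak of the group, 121 had 2 or more and 18 had 3 or more. Svil, which encodes an actin-binding protein, had 5, with pooled signals from 103 to 273, and cnc, the gene of the oxidative stress transcription factor related to Nrf2, had 5, from 83.1 to 141. In each of these genes the 5 peaks were nearest to 4 different starts. Rtnl1, a reticulon gene of the endoplasmic reticulum, had 4 (97.4 to 353), each nearest to a different start, and Prps, a nucleotide synthesis gene, had 4 (112 to 288). Those with 3 were Atpalpha, the sodium pump subunit gene, Hnf4, a nuclear receptor gene, Msp300, a nesprin gene, Ptpmeg2, a phosphatase gene, bun, jing, pyd, PAN3, REPTOR, shn, aru, Samuel, CG14478 and CG6785. Heights within a gene could be far apart. At shn one promoter reached 747 while the others stood at 86.6 and 90.3, and at PAN3 the values were 587, 95.2 and 83.1. At bun (206, 174 and 158) and Ptpmeg2 (435, 285 and 194) every promoter peak was above the median of the group.

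GAGA repeats were common at one-directional promoter peaks. Within 100 bp of the summit, on both strands, GAGAG was found at 364 of the 1112 (32.7%, 30.0 to 35.5), against 14.8% (11.0 to 19.6) of divergent promoter peaks and 27.6% (25.7 to 29.6) of peaks with no coding start in reach. Windows of the same length centred 1000 bp upstream and downstream of the same summits held it in 22.4% and 25.5%. Over the 5 groups by signal the share at the summits ran between 30.5% and 36.9% with no order. The strongest with GAGAG were CG18549, Gapdh2 and shn. Copies were not packed at the summit itself: 932 lay within 100 bp of it and 1061 lay 100 to 200 bp to either side, overlapping copies counted singly. Relative to the start they were most frequent in the last 100 bp upstream, with 842 copies, against 250 in the first 100 bp downstream.

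**Figure D4:**
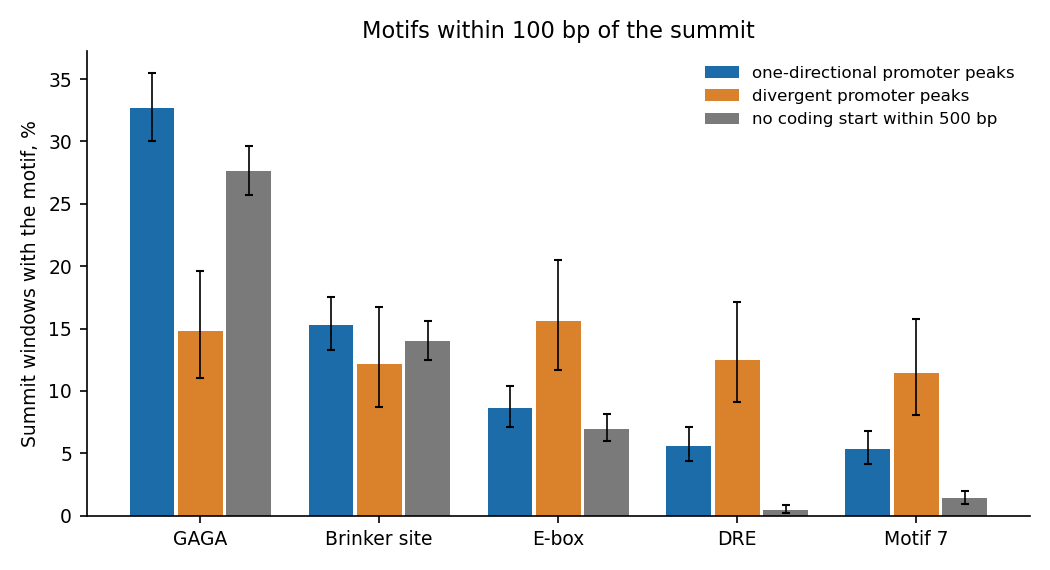
Share of summit windows (100 bp on each side, both strands) that hold each motif, in %, with 95% Wilson intervals, for one-directional promoter peaks, divergent promoter peaks and peaks with no coding start within 500 bp. E-box stands for the motif CAGCTG. The GAGA motif is most frequent at one-directional promoters (32.7%) and DRE at divergent ones (12.5%).

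DRE was the rarer motif and followed another pattern. It was present at 62 one-directional promoter peaks (5.58%, 4.37 to 7.08), against 12.5% (9.08 to 17.1) of divergent ones and 0.449% (0.236 to 0.851) of the rest, and in 1.17% and 0.629% of the windows 1000 bp upstream and downstream. The 62 summits lay near the start, with a median of -74.0 bp. For 58 (93.5%) the nearest start was the first of the gene or within 500 bp of it. GAGAG peaks had a median of -158.0 bp, and 57.1% were at a first start by the same measure. Over the whole group this held for 751 of 1112 peaks. Both motifs were held by 7 peaks, which is 11.3% of those with a DRE, against 32.7% with GAGAG over the whole group. Those with a DRE had a median signal of 115, with Ufsp1 (430), CG11151 (245) and Map205 (244), a microtubule-binding protein gene, the strongest. Each replicate's own list gave like shares, 6.09% in replicate 3 and 4.87% in replicate 4 for DRE and 33.3% and 30.4% for GAGAG.

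The Brinker site was no more frequent at the summits than away from them. It was present at 170 one-directional promoter peaks (15.3%, 13.3 to 17.5), against 12.2% (8.75 to 16.7) of divergent ones and 14.0% (12.5 to 15.6) elsewhere. The windows 1000 bp away held it more often, in 18.6% upstream and 20.8% downstream, and their GC content was 40.6% and 42.4%, against 36.0% at the summits. Over the 5 groups by signal the share ran between 12.6% and 18.5% with no order. The strongest with a site were nebu (269 in replicate 3 and 274 in replicate 4) and fkh (246 in replicate 3 and 244 in replicate 4), then Ufsp1, CG11357, Trp1, CG5335, Cyp310a1 and CG4586, down to a pooled signal of 303. The site is short and degenerate, and a match is a run of letters, not a measured contact.

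Other motifs were also more frequent at divergent than at one-directional promoter peaks. Unlike DRE, CAGCTG and TATAAA were not near absent away from coding starts. CAGCTG was present at 8.63% of one-directional promoter peaks (7.12 to 10.4), against 15.6% of divergent ones (11.7 to 20.5) and 6.98% elsewhere, with REPTOR, Sesn and Trp1 the strongest of the group. Motif 7, a core promoter element of housekeeping genes, was at 5.31% (4.14 to 6.78), against 11.4% of divergent ones (8.11 to 15.8) and 1.40% elsewhere, with Oatp30B, l(2)k01209 and tin the strongest. TATAAA was at 36.4% of one-directional promoter peaks, 48.3% of divergent ones and 35.7% elsewhere, and the GC content of these windows averaged 36.0%, 31.9% and 35.8%, so windows of divergent promoters are richer in A and T. Matches of different motifs may overlap.

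Promoters with a peak were also set against those without, in windows from 250 bp upstream to 50 bp downstream of the start. GAGAG was in 50.1% of the 1051 with a one-directional promoter peak (47.1 to 53.2), against 34.5% (33.7 to 35.4) of the 11832 without any peak and 35.8% of all one-directional promoters. The GC content was 40.6% with a peak and 40.7% without. At later promoters GAGAG was in 69.8% with a peak (64.6 to 74.4), against 44.2% (42.3 to 46.1) without. At first promoters it was in 41.0% with a peak (37.5 to 44.6), against 31.7% (30.8 to 32.7) without. DRE was instead more frequent at first promoters than at later ones. At first promoters it was in 10.5% with a peak (8.43 to 12.9), against 6.00% (5.53 to 6.50) without. At later ones it was in 2.40% with a peak (1.22 to 4.65, 8 promoters), against 1.39% (1.01 to 1.91) without, and these intervals overlap. The Brinker site was in 31.4% of promoters with a peak (28.7 to 34.3), against 27.9% (27.1 to 28.7) without and 28.1% of all.

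Genes of 35 lists were then counted by whether a peak of the group stood at an own start. All lists were chosen with earlier results of these data known, so their counts describe them and are no independent evidence. Lists can share genes, so their counts overlap. For example, gro, CtBP and nej count both in the Dpp pathway and among the corepressors and cofactors. Likewise, magu and Dad count both in the Dpp pathway and among the Brinker or Dpp targets. Each count is to be read beside the share of all coding genes, 7.14%, and beside the share that the number of promoters of the listed genes alone gives, from the rates above. In the Dpp pathway 12 of 38 genes had such a peak (31.6%, 19.1 to 47.5), where promoter number gives 11.9%. Among the strongest entries of each replicate alone the count was 11 in replicate 3 and 8 in replicate 4, and with only the most upstream start of each gene it was 7.

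In the Dpp pathway the peaks stood at some ligand, receptor, extracellular and intracellular genes, but not at dpp, Mad, Med or brk. Of ligand genes, Actbeta, an activin, had 52.2 in replicate 3 and 75.3 in replicate 4, and mav, a TGF-beta family ligand, had 46.9 and 31.6 in that order. Of receptor genes, tkv, the type I receptor of Dpp, had 78.0 in replicate 3 and 68.9 in replicate 4, and wit, a type II receptor, had 42.3 and 67.2 in that order. These were weak to middling peaks, where the medians of the group are 69.9 in replicate 3 and 64.1 in replicate 4, and the replicates disagreed on which of Actbeta and tkv was higher.

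Outside the cell, dally, a glypican that shapes Dpp spread, had 60.7 in replicate 3 and 40.3 in replicate 4. The secreted regulator magu had 100 in replicate 3 and 85.6 in replicate 4, and the transmembrane protein gene kek5 had 59.1 in replicate 3 and 64.4 in replicate 4. Within the cell, Dad, the inhibitory Smad, had 87.7 in replicate 3 and 66.8 in replicate 4 at its stronger promoter peak. The corepressor gene gro had 112 in replicate 3 and 136 in replicate 4, and CtBP, the other corepressor of Brinker, had 69.9 and 37.2 in that order. nej, the CBP coactivator gene, stood at 45.7 in replicate 3, and replicate 4 lacked an entry there. With its strongest peak at 747, shn stood apart from the rest of the list, whose pooled signals ran from 85.6 at nej to 252 at gro. No peak of the group stood at an own start of dpp, gbb, put, sax, babo, Mad, Med or brk.

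Of the Brinker or Dpp targets, 4 of 28 had a peak of the group (14.3%, 5.70 to 31.5), where promoter number gives 10.0%, a share near that background. They were magu, ush, a GATA cofactor gene, with 112 in replicate 3 and 62.6 in replicate 4, Dad, and vn, an EGFR ligand gene, with 50.8 in replicate 3 and 36.9 in replicate 4. The wing targets salm, bi and vg had none at their own starts.

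The highest share was in the insulin and TOR pathway, which couples growth to nutrition, with 12 of 23 genes (52.2%, 33.0 to 70.8), where promoter number gives 13.9%. The count was 12 in the strongest entries of each replicate too, and 7 with only the most upstream start of each gene. REPTOR, which is held in the cytoplasm by active TOR, had 272 in replicate 3 and 281 in replicate 4. The sestrin gene Sesn, an inhibitor of TOR, had 240 in each replicate, and Pi3K21B, the adaptor subunit of PI3 kinase, had 96.1 in replicate 3 and 97.0 in replicate 4. In each of these the replicates differed by little.

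Corepressors and cofactors had 5 of 11 (45.5%, 21.3 to 72.0), where promoter number gives 11.0%, led by Sin3A (pooled signal 253), gro (252) and hry (231), which encodes the repressor Hairy. That count was 4 in the strongest entries of replicate 3 and 3 in those of replicate 4, 3 with starts within 250 bp and 2 with only the most upstream starts. Glycolysis had 5 of 14 (35.7%, 16.3 to 61.2), where promoter number gives 17.8%, inside that interval, and 3 with starts within 1000 bp. There Gapdh2 led with 881, followed by Eno, the enolase gene, with 187 in replicate 3 and 169 in replicate 4, and by the hexokinase gene Hex-A with 181 and 162 in that order. All 3 summits lay between -224 and -145 bp. Heat shock and chaperone genes had 8 of 24 (33.3%, 18.0 to 53.3), where promoter number gives 7.43%, and 4 with starts within 250 bp. Hsp27 led with 253 in replicate 3 and 360 in replicate 4, then Hsp26 with 232 in replicate 3 and 212 in replicate 4, at -156 and -138 bp. Hsp83, the Hsp90 gene, had 131 in each replicate, at 111 bp downstream of the start.

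The ecdysone cascade, which times the end of larval life, had 9 of 30 (30.0%, 16.7 to 47.9), where promoter number gives 18.1%, inside that interval. With only the most upstream starts the count was 5. Eip75B, a nuclear receptor gene, had 190 in replicate 3 and 176 in replicate 4, the lactate dehydrogenase gene Ldh 149 and 203 in that order, and EcR, the ecdysone receptor gene, 110 and 117. The Notch pathway had 8 of 33 (24.2%, 12.8 to 41.0), where promoter number gives 7.35%, with numb, an inhibitor of Notch, at a pooled signal of 414, and E(spl)m7-HLH and Nedd4 at 222 each. The Notch count was 5 in the strongest entries of replicate 3 and 8 in those of replicate 4, 5 with starts within 250 bp and 4 with only the most upstream starts. Polycomb and Trithorax group genes had 7 of 29 (24.1%, 12.2 to 42.1), where promoter number gives 8.56%, led by ph-p (665), osa (146) and Trl (141), and 4 with only the most upstream starts. Insulator and promoter-binding factor genes had 5 of 21 (23.8%, 10.6 to 45.1), where promoter number gives 10.5%, led by BEAF-32 (173), JIL-1 (156) and Trl, and 3 with only the most upstream starts.

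Wing and leg transcription factor genes had 9 of 42 (21.4%, 11.7 to 35.9), where promoter number gives 10.9%, led by bowl (445), Dll (269), the limb selector gene, and noc (204). That count was 9 in the strongest entries of replicate 3 but 5 in those of replicate 4. The Wg pathway had 6 of 30 (20.0%, 9.51 to 37.3), where promoter number gives 12.1%, inside that interval, led by gish, by sgg, the GSK3 gene, with 104 in replicate 3 and 103 in replicate 4, and by nkd (178). EGFR and FGF genes had 6 of 30 (20.0%, 9.51 to 37.3), where promoter number gives 11.9%, inside that interval, led by Egfr (163), spi (152) and edl (125). Hippo genes had 5 of 24 (20.8%, 9.24 to 40.5), where promoter number gives 13.3%, inside that interval, led by sd, with 110 in replicate 3 and 29.5 in replicate 4, Diap1 (136) and kibra (107). The Hippo count was 4 in the strongest entries of replicate 3 and 2 in those of replicate 4. Of 13 Hedgehog genes, rdx (140) and ci (89.6) had a peak (15.4%), where promoter number gives 9.53%.

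Among tissue lists, salivary gland and glue genes had 3 of 14 (21.4%, 7.57 to 47.6), where promoter number gives 4.43%: fkh (484), Sgs1 (158) and Sgs5 (127), the last pair encoding glue proteins made at this stage. Apoptosis genes had 3 of 16 (18.8%, 6.59 to 43.0), where promoter number gives 10.1%, which are hid (234), puc (228) and Diap1. Cell cycle and Myc growth genes had 4 of 29 (13.8%, 5.50 to 30.6), where promoter number gives 10.7%, led by E2f1 (144), CycG (144) and CycE (88.8), with 2 within 250 bp and 1 with only the most upstream starts. Of 15 fat body markers, Lpin and Desat1 (184) had a peak (13.3%), where promoter number gives 15.8%, and none did within 250 bp. Single genes had one among 15 blood cell markers (ush), 20 muscle markers (Zasp52, 99.1) and 20 neuron markers (elav, 359), where promoter number gives 12.9%, 14.4% and 19.0%. The neuron count was 0 in the strongest entries of replicate 4. None of 24 cuticle, 22 gut, 19 germline and testis and 8 Hox genes did, where promoter number gives 4.43%, 5.51%, 7.92% and 17.3%. The germline list had 1 gene in replicate 4 alone and the Hox list 1 in replicate 3 alone.

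Cytoplasmic ribosomal protein genes had 13 of 84 (15.5%, 9.27 to 24.7), where promoter number gives 4.99%. RpS2 had 101 in replicate 3 and 107 in replicate 4, RpL27 had 96.4 and 99.9 in that order, and RpL6, whose summit sequence with a DRE is shown above, had a pooled signal of 157. Mitochondrial ribosomal protein genes had 1 of 75 (1.33%, 0.236 to 7.17), mRpL41, where promoter number gives 4.43%, while 10 of the list had a divergent promoter peak. The count was 1 in the strongest entries of replicate 3 and 2 in those of replicate 4, 4 with starts within 250 bp and 0 within 1000 bp. Respiratory chain genes had 5 of 87 (5.75%), near the 5.39% that promoter number gives, led by ND-13B (149), SdhA (128) and ND-B14.7 (110), and 9 had a divergent promoter peak. Their count was 6 in replicate 3 and 3 in replicate 4. Proteasome genes had 2 of 32 (6.25%), near the 5.17% that promoter number gives, Rpn11 (126) and Prosbeta6 (97.2), with 1 in replicate 3 and 0 in replicate 4. General transcription factor genes had 2 of 82 (2.44%), MED26 (136) and Polr3G (125), and the aminoacyl-tRNA synthetase genes 1 of 33 (3.03%), AlaRS (145), where promoter number gives 5.31% and 5.51%. No gene had one among 111 histone, 44 translation initiation factor and 33 vacuolar ATPase genes, where the intervals reach 3.35%, 8.03% and 10.4% and promoter number gives 4.43%, 5.24% and 5.87%. Single-replicate lists gave up to 2 translation initiation factor genes and 1 vacuolar ATPase gene. The histone genes are near-identical repeated copies, and how reads were placed among them is not given in the sources used here.

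**Figure D5:**
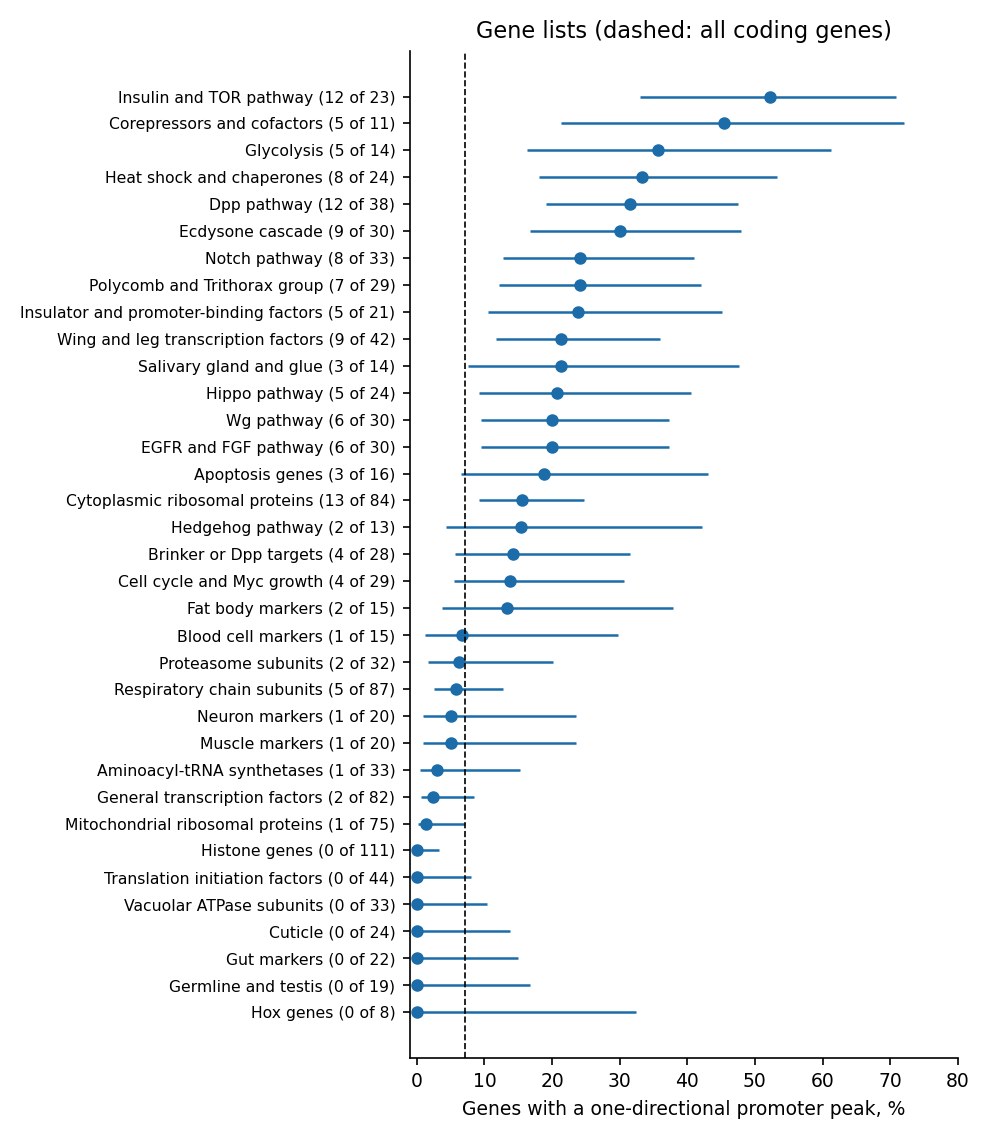
Share of the genes of each list with a one-directional promoter peak at an own start (point, %) and its 95% Wilson interval (line). Counts are in brackets, and the dashed line marks the share of all coding genes, 7.14%. The insulin and TOR pathway leads with 52.2%, and 7 lists at the bottom have no such gene.

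At the edge of the 500 bp limit, peaks stood on both sides. Just inside were ckn (-499 bp, pooled signal 91.3), ringer (-497 bp, 83.1) and spi (496 bp, 103). Just outside were nrv1 (-502 bp, 118), cindr (502 bp, 107) and l(3)neo38 (-504 bp, 156). The 49 peaks from 451 to 500 bp had a median signal of 108, and the 34 from 501 to 550 bp one of 115.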

How the data were processed

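Peak lists were analysed from 2 replicates of 1 group of whole larvae. Peaks and background were called on dm6 alignments of each replicate and of both together, with a control alignment, then filtered by the IDR procedure, per the deposited sample notes. What aligned the reads, what called the peaks and which IDR threshold applied is not given in the sources used here. Signal is the authors' deposited value, with no stated scale. The −log10 q-value, also deposited by the authors, was not used for ranking. No depth or read count is known, so shares carry 95% Wilson intervals for counting error only.

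From these lists the summit (start plus offset) was placed against protein-coding transcript starts of Ensembl release 115 (BDGP 6.54), whose arms contain every dm6 peak, and the group was taken by its rule. Densities divide counts by the sequence that meets the rule. Replicate values are those of the strongest entry that overlaps the peak by at least 1 bp, which can be a neighbour. Leaving out a replicate means using the strongest 3380 nuclear entries of the other. Of 27 motifs, searched on both strands, the text describes 6. Of the listed names, 23 were found through synonyms, and another 23 found no gene and are not analysed here. Lists on the older build (dm3) were not used. Python 3.11.15, pandas 2.3.3, NumPy 2.4.6, SciPy 1.17.1 and Matplotlib 3.10.9 were used, and the counting was checked on simulated peaks.

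The members, gene lists, motifs and alternatives were chosen with earlier results of these data known. Genes are named by a rule: the nearest gene of the 25 strongest peaks, all Dpp pathway and Brinker target genes with a peak, the top 3 of other lists, genes with 3 or more peaks, the 3 peaks on each side of the 500 bp limit and up to 3 per motif (8 for the Brinker site). No test of a condition was possible with 1 group.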

Additional observations from a re-analysis of the deposited data

How the results depend on the processing

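The count of one-directional promoter peaks stayed within 1.5 times 1112 under every alternative but one. It was 593 in the stronger part of the IDR list, at or above its median signal, which holds fewer peaks by construction. In that part the density was 43.4 per Mb, the listed genes with a peak numbered 83 in place of 130, and 11.5% of summits lay downstream. With coding starts within 250 bp the density was 107 per Mb and the median distance -118 bp, and with 1000 bp they gave 58.9 per Mb and 24.7% downstream. With starts of every gene type 18.5% lay downstream, and with the most upstream start of each gene only the median was -151 bp. Using one replicate's own list, the count ran from 1048 to 1215, the density from 76.7 to 89.0 per Mb, the median distance from -158 to -148 bp, the share downstream from 15.6% to 18.0%, and the listed genes from 117 to 143. The share with GAGAG ran from 30.4% to 33.3%, that with DRE from 4.87% to 6.09% and that with a Brinker site from 14.2% to 16.4%. Windows of 50 bp on each side gave 16.5%, 3.24% and 7.64% for GAGAG, DRE and the Brinker site, and windows of 250 bp 62.9%, 8.72% and 39.2%. A replicate summit within 100 bp was present in both replicates at 84.0%, in place of 93.8% by overlap.

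Chosen after seeing the data, the peaks narrower than 416 bp gave a median of -177 bp and 7.34% downstream. Without arm 4 the median was -163 bp, and with an entry in both replicates required 1043 peaks remained. Counts for single lists moved by over 1.5 times in 16 of 35 lists with only the most upstream starts, 9 without replicate 3 and 5 without replicate 4. No paired analysis was possible because there is 1 group. The causes were not tested.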
